A study of Mus musculus with 8 samples.

Results

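Open chromatin was described at 9 interferon response genes in SN4741 cells. The members were Irf1, Irf3, Irf7, Irf9, Stat2, Isg15, Ifit1, Ifit3 and Cxcl10, a list chosen by name, and all 9 were found among the 21755 protein-coding genes of the GENCODE M21 annotation on the autosomes and the X chromosome. SN4741 is a mouse line, described at its origin as clonal, from the embryonic substantia nigra, wild type by its label, in which a tyrosine hydroxylase promoter drives a temperature-sensitive SV40 large T antigen. The study found its karyotype to be unstable and polyploid, so copy number at these loci may differ from that of a normal mouse cell. Chromatin accessibility was assayed by ATAC-seq, in which a transposase inserts adapters into open DNA, in 4 libraries grown at 37°C in 10% serum and in 4 held for 48 hours at 39°C in 0.5% serum, a temperature at which this T antigen is less active. Its activity was not measured in these libraries. The serum and the temperature changed together, so their effects cannot be told apart. The labels number the libraries 1 to 4 within each temperature but do not state separate thaws or cultures, so the tests measure the spread between these libraries, which may be technical.

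Interferons are secreted when a cell senses viral nucleic acid. Type I interferon binds the Ifnar receptor, whose kinases phosphorylate Stat2. The complex ISGF3, which holds Stat2 and Irf9, binds the interferon-stimulated response element, a site built from repeated GAAA units. Interferon gamma acts on its target genes through the GAS element. Among the members, Irf3 and Irf7 are the factors that switch on interferon genes after sensing, Irf1 is an inducible factor downstream of interferon gamma, and Irf9 and Stat2 are ISGF3 subunits. Isg15 encodes a ubiquitin-like modifier, Ifit1 and Ifit3 encode proteins that bind foreign RNA or support that binding, and Cxcl10 encodes a chemokine that draws T cells.

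Of the motifs searched in the promoter sequences, the IRF motif set the effector genes apart from the factor genes. A window of 300 bases, from 250 before to 50 after the principal start, was searched on both strands without mismatches for an IRF motif (GAAANNGAAA), a GAS motif (TTCNNNGAA) and a kappaB motif (GGGANNTTCC). The IRF motif was in the windows of 4 of the 9 members, which were the 4 effector genes Isg15, Ifit1, Ifit3 and Cxcl10. It was in 794 of 21750 protein-coding promoters (3.65%). None of the 5 factor genes held it in this window. The GAS motif was in the window of 1 member, Irf1, and in 8.04% of all promoters, and the kappaB motif was in that of 1 member, Cxcl10, and in 1.57% of all promoters. For GAS, 1 of 9 members is close to the share over all promoters. A further GAS match, from base 139 to base 147 of Irf9, lay outside this window. The bases before the starts of the 5 genes with a match in the window are shown. They are from the mm10 genome, read 5′ to 3′ on the gene's own strand and ending just before the start, except for Cxcl10, where a transcript begins a few bases earlier. Matches on either strand are in capitals.
Isg15, chr4:156200819-156201018, minus strand: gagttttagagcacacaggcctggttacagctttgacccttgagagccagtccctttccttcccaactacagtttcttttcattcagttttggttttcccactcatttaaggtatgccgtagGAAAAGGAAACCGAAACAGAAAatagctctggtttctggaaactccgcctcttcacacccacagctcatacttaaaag
Ifit1, chr19:34640744-34640870, plus strand: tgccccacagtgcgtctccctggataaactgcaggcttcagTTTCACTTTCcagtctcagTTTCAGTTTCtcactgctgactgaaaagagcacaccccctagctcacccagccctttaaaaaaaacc
Ifit3, chr19:34583331-34583530, plus strand: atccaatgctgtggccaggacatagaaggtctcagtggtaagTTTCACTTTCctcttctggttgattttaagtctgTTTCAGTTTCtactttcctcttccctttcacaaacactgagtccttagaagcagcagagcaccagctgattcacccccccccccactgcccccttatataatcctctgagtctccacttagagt
Cxcl10, chr5:92348890-92349082, minus strand: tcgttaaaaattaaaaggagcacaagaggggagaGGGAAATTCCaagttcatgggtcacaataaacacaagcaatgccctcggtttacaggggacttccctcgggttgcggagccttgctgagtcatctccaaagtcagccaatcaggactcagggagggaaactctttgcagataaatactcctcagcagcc
Irf1, chr11:53769814-53770013, plus strand: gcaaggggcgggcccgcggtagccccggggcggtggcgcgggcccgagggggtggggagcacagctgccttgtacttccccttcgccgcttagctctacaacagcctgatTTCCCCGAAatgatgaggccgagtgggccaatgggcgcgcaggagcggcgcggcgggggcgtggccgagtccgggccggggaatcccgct

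In Isg15, 3 IRF matches overlapped from base -78 to base -57. Ifit1 and Ifit3 each held 2 matches with the same letters in the same order, TTTCACTTTC and TTTCAGTTTC, at bases -86 and -67 of Ifit1 and at bases -158 and -124 of Ifit3. The IRF match of Cxcl10, GAAAGTGAAA, began at base -220, just before the bases shown, and its capitals mark the kappaB match at base -166. In Irf1 the capitals mark the GAS match at base -90. Base composition also differed between members. GC content was 69.3% in the Irf1 window and 62.7% in the Stat2 window, against 46.3% in that of Isg15, 51.7% in Ifit1, 50.7% in Ifit3 and 50.0% in Cxcl10. GC content was 58.3% in Irf3, 55.3% in Irf9 and 53.0% in Irf7. The ratio of observed to expected CpG did not follow the roles. Among factors it was 0.917 in Stat2, 0.912 in Irf1, 0.712 in Irf3, 0.392 in Irf9 and 0.142 in Irf7. Among effectors it was 0.589 in Cxcl10, 0.377 in Isg15, 0.202 in Ifit1 and 0.0554 in Ifit3. A match says only that these letters are present and is not a measured binding site.

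Each library came as a list of peaks, the stretches where fragments piled up above the genome-wide background at a q-value under 0.05. Because a peak's -log10 q grows with depth, each peak was given a percentile within its own list, with 100 for the highest -log10 q. A gene's promoter value was that of its best peak within 1 kb of any annotated start, and 0 where there was none. The lists held 74026 to 92013 peaks at 37°C and 54845 to 68410 at 39°C, from 49787392 to 169183346 fragments kept at 37°C and 52742394 to 71220050 at 39°C. The library 39°C replicate 4 had the shortest list, and 37°C replicates 1 and 4, with 169183346 and 158068253 fragments, were the deepest. A longer list holds more weak peaks, which raises the percentile of every stronger peak, so the main percentiles were also computed after each list was reduced to its highest 54845 peaks. The median difference in promoter percentile (39°C minus 37°C) was -2.90 points over all 14798 genes tested with all peaks. With equal numbers of peaks it was -0.174 points over the 13793 genes tested. The size of such a difference can depend on the level of the percentile, and medians and ranks over genes were not matched for level.

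All 4 libraries at 37°C had a promoter peak at each of the 9 members. At 39°C this held for every member except Isg15, which lacked a peak in replicate 4, so 8 of 9 members had a promoter peak in all 8 libraries, beside 60.4% of all protein-coding genes. A value is called separated when all 4 libraries at 1 temperature lay above all 4 at the other. Promoter percentiles were separated for 5 of 9 members (Irf7, Irf9, Isg15, Ifit1 and Cxcl10), each lower at 39°C, and for none in the higher direction. Over all genes tested 52.2% were separated and lower at 39°C and 0.5% higher, so the members' count was close to the background. With equal numbers of peaks 3 members were separated. Isg15 and Cxcl10 were lower at 39°C, where the background was 16.4%, and Ifit3 was higher, where it was 7.52%. The exact permutation test over the 70 ways of assigning 8 libraries cannot give a p below 0.0286. After Benjamini-Hochberg adjustment over all genes the smallest adjusted p was 0.0542, so no gene passed 0.05 in this exact permutation test, while 7797 genes, the 5 members included, had an unadjusted p of 0.0286.

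**Figure D1:**
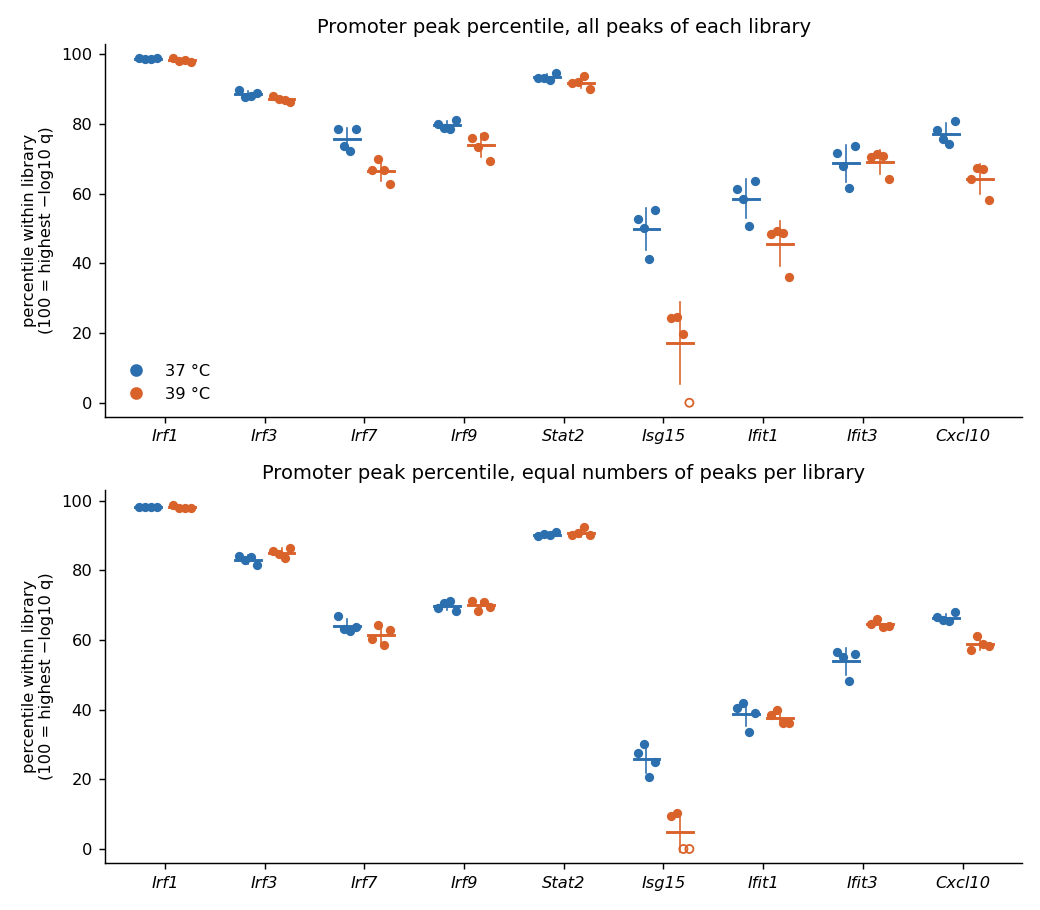
Percentile of the best promoter peak within its library (y axis, 100 for the highest -log10 q) for the 9 members (x axis) in 4 libraries at 37°C (blue) and 4 at 39°C (orange), with all peaks (top) and with equal numbers of peaks (bottom). Points are libraries, open points at 0 are libraries without a peak, horizontal bars are means and vertical bars are ± 1 SD. With all peaks Isg15, Cxcl10, Ifit1, Irf7 and Irf9 do not overlap between temperatures, and with equal numbers Isg15 and Cxcl10 stay lower at 39°C while Ifit3 is higher.

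Irf1, Stat2 and Irf3 had higher promoter percentiles than each effector gene in all 8 libraries. Irf1 (chr11:53770014-53778374, plus strand) had percentiles of 98.9, 98.6, 98.8 and 98.9 at 37°C and 98.9, 98.2, 98.4 and 97.9 at 39°C. The groups overlapped, with means of 98.8 ± 0.123 and 98.3 ± 0.425 (SD, n = 4 each; exact permutation p = 0.0857, adjusted 0.126), and with equal numbers of peaks they overlapped too (difference -0.12). This promoter was in the top few percent of peaks in every library. Stat2 (chr10:128270559-128292849, plus strand) came next, with 93.4, 93.1, 92.6 and 94.6 at 37°C and 91.7, 92.2, 93.9 and 90.0 at 39°C. The groups overlapped because replicate 3 at 39°C lay above 3 of the 37°C libraries (difference -1.48, exact permutation p = 0.171, adjusted 0.221). With equal numbers of peaks they overlapped too and the difference turned to 0.50. The Stat2 promoter region also lies within 1 kb of a start of Apof, a neighbouring apolipoprotein gene, and the peak cannot be divided between the genes.

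Irf3 (chr7:44997648-45002848, plus strand) shares its promoter region with the divergent gene Bcl2l12. Its percentiles were 89.7, 87.9, 88.0 and 88.9 at 37°C and 88.0, 87.2, 86.8 and 86.4 at 39°C. The highest 39°C library lay just within the 37°C range (difference -1.53, exact permutation p = 0.0571, adjusted 0.0913), and with equal numbers of peaks the difference turned to 1.99. Irf9 (chr14:55603571-55610030, plus strand), the DNA-binding subunit of ISGF3, had 80.0, 79.0, 78.7 and 81.1 at 37°C and 75.9, 73.5, 76.6 and 69.5 at 39°C. All 4 libraries at 39°C were lower (79.7 ± 1.09 against 73.9 ± 3.19, SD, n = 4 each; difference -5.83, exact permutation p = 0.0286, adjusted 0.0542). The Irf9 means were 69.8 and 69.98 with equal numbers of peaks, so the separation was not seen on that scale.

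Irf7 (chr7:141262706-141266481, minus strand), the factor that amplifies type I interferon production, had percentiles of 78.5, 73.8, 72.2 and 78.5 at 37°C and 66.8, 70.1, 66.8 and 62.8 at 39°C. Every 39°C library was below every 37°C library (75.8 ± 3.23 against 66.6 ± 2.97, SD, n = 4 each; difference -9.11, exact permutation p = 0.0286, adjusted 0.0542). On the scale of equal numbers of peaks the values were 67.0, 63.3, 62.5 and 63.9 against 60.3, 64.4, 58.6 and 62.8, which overlapped (difference -2.61, exact permutation p = 0.229, adjusted 0.419).

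Isg15 (chr4:156199424-156200818, minus strand) had the weakest promoter peak of the 9 members in each library and the largest difference among them. Its percentiles were 52.8, 50.3, 41.2 and 55.2 at 37°C and 24.4, 24.5 and 19.7 in replicates 1 to 3 at 39°C, with no peak in replicate 4. The means were 49.9 ± 6.11 and 17.2 ± 11.7 (SD, n = 4 each, the missing peak counted as 0; difference -32.7, exact permutation p = 0.0286, adjusted 0.0542), and 2.47% of all genes tested had a lower difference. Its summits lay from 14 to 78 bases before the start, between the far end of the overlapping IRF matches and the start. When the lists were of equal length the 37°C values were 27.5, 30.2, 20.7 and 24.9, and at 39°C replicates 1 and 2 gave 9.46 and 10.2 while replicates 3 and 4 had no peak left. That difference was -20.9 (exact permutation p = 0.0286, adjusted 0.119). The caller's fold enrichment, the pileup at the summit over the genome-wide background, was 6.25, 7.13, 5.84 and 6.62 at 37°C and 4.49, 4.28 and 4.09 at 39°C.

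Cxcl10 (chr5:92346638-92348889, minus strand) lies within an intron of Art3. Its percentiles were 78.3, 75.6, 74.4 and 80.9 at 37°C and 64.2, 67.3, 67.0 and 58.1 at 39°C. The groups did not overlap (77.3 ± 2.90 against 64.2 ± 4.25, SD, n = 4 each; difference -13.1, exact permutation p = 0.0286, adjusted 0.0542). They were also separated with equal numbers of peaks, at 66.6, 65.7, 65.4 and 67.9 against 57.1, 61.1, 58.9 and 58.1 (difference -7.61, exact permutation p = 0.0286, adjusted 0.119). Fold enrichment was 22.4, 22.5, 21.4 and 25.3 at 37°C and 15.8, 17.4, 18.6 and 10.1 at 39°C. Summits lay from 51 to 114 bases before the start, between the kappaB match and the start.

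Ifit1 (chr19:34640871-34650009, plus strand) starts 0.128 kb from the start of the divergent gene Ifit1bl2, and the promoter peak covers both. Its percentiles were 61.4, 58.6, 50.8 and 63.7 at 37°C and 48.6, 49.4, 48.8 and 36.1 at 39°C. The lowest 37°C library lay just above the highest 39°C library (difference -12.9, exact permutation p = 0.0286, adjusted 0.0542). The groups overlapped when peaks under a -log10 q of 5 were left out (difference -12.3, exact permutation p = 0.114, adjusted 0.183). They also overlapped with equal numbers of peaks, at 40.6, 41.9, 33.7 and 39.1 against 38.4, 39.8, 36.1 and 36.1, with a difference of -1.23 (exact permutation p = 0.6, adjusted 0.748).

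Ifit3 (chr19:34583531-34588731, plus strand) was the member whose promoter percentile was not lower at 39°C. Its values were 71.7, 68.0, 61.6 and 73.7 at 37°C and 70.5, 71.5, 70.8 and 64.1 at 39°C, with overlapping groups (difference 0.48, exact permutation p = 0.914, adjusted 0.927). Among all genes tested, 97.7% had a lower difference. With equal numbers of peaks the libraries gave 56.4, 55.1, 48.2 and 55.9 at 37°C and 64.6, 66.1, 63.6 and 64.1 at 39°C. Every 39°C library was then higher (53.9 ± 3.84 against 64.6 ± 1.07, SD, n = 4 each; difference 10.7, exact permutation p = 0.0286, adjusted 0.119), and 99.1% of the genes tested on that scale had a lower difference. Fold enrichment was 14.5, 14.5, 11.3 and 15.5 at 37°C and 22.0, 21.8, 22.8 and 12.9 at 39°C, so replicates 1 to 3 at 39°C were above all 37°C libraries and replicate 4 was not. The same order was seen at Irf3, with 50.3, 51.8, 51.8 and 46.3 at 37°C and 61.7, 52.9, 59.3 and 37.2 at 39°C. This order was thus not particular to Ifit3, and fold enrichment was not ranked within a library. The copy Ifit3b starts 24.4 kb away, and the Ifit3 and Ifit3b promoter windows had 189 of 257 bases equal at their best ungapped alignment, so reads may be split between them where they match.

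**Figure D2:**
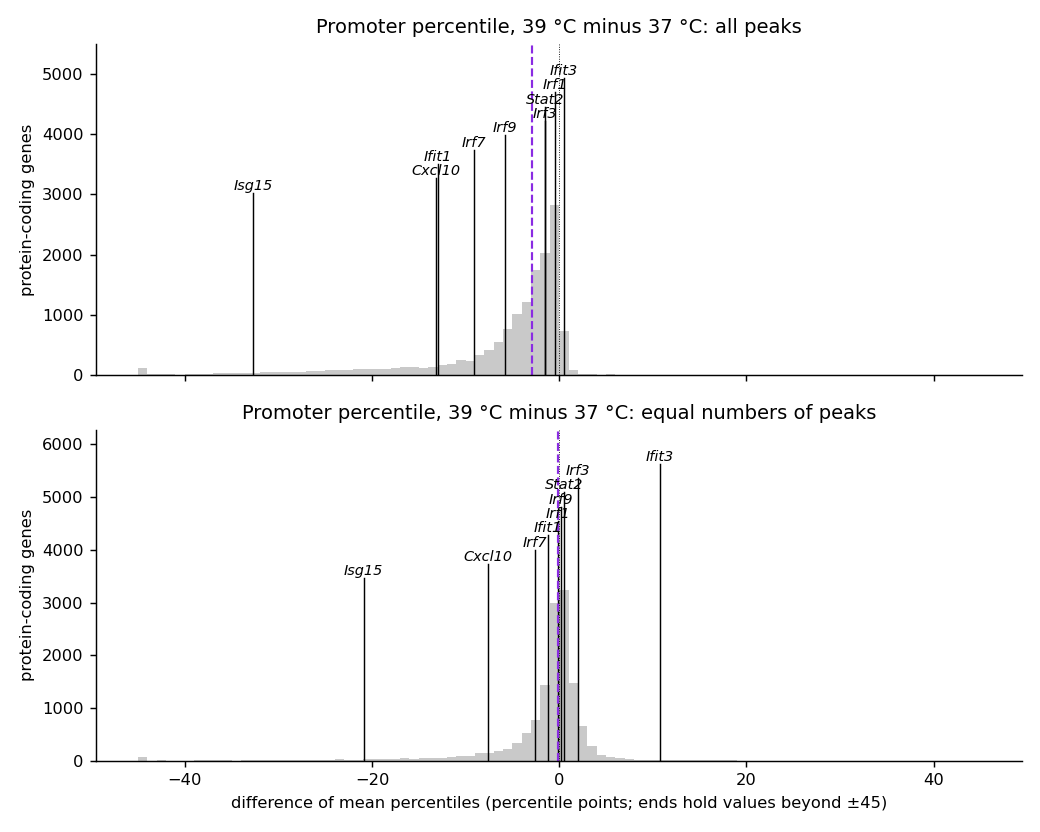
Number of protein-coding genes (y axis) by the difference in mean promoter percentile, 39°C minus 37°C, in percentile points (x axis), with all peaks (top, 14798 genes) and with equal numbers of peaks (bottom, 13793 genes). Black lines mark the 9 members and the dashed purple line marks the median, at -2.90 and -0.174. Isg15 lies far to the left in both panels and Ifit3 lies to the right of most genes.

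Promoters with an IRF motif were also described over all genes. Of the genes with an IRF motif in the promoter window, 481 were tested, of which 58.4% were separated and lower at 39°C and 0.416% higher, with a median difference of -4.47 points, beside 52.2%, 0.5% and -2.90 points over all genes. On equal numbers of peaks 20.3% of 449 such genes were lower and 5.35% higher, with a median of -0.67, beside 16.4%, 7.52% and -0.174. These shares are descriptions over genes and carry no test, and the 4 effector promoters that hold the motif lay on both sides of these medians.

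The widths of the promoter peaks ran from 421 bp at Isg15 to 8259 bp at Irf1. Irf1 peaks were 8259, 6368, 4185 and 8131 bp wide at 37°C and 5880, 6162, 6114 and 2596 bp at 39°C, and covered most of the gene in the widest libraries. The groups overlapped (difference -1548 bp, exact permutation p = 0.2, adjusted 0.329), and without the deep 37°C replicates 1 and 4 the difference was -88.5 bp. In 37°C replicate 3 and 39°C replicate 4, where the Irf1 peak was narrowest, the promoter held 2 peaks in place of 1. Widths were separated for 2 of the 8 members tested, Irf7 and Stat2, both narrower at 39°C, beside 23.4% of all genes tested and 0.129% that were wider.

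At Irf7 the widths were 3999, 3675, 3309 and 3807 bp at 37°C and 2810, 2512, 1946 and 1570 bp at 39°C. No 39°C library reached the narrowest 37°C peak (difference -1488 bp, exact permutation p = 0.0286, adjusted 0.122). At Stat2 they were 2481, 1971, 1730 and 1900 bp at 37°C and 1293, 1458, 1341 and 1607 bp at 39°C. The gap between the groups was smaller there (difference -596 bp, exact permutation p = 0.0286, adjusted 0.122). Cxcl10 peaks were 1817, 1435, 1641 and 1878 bp against 1576, 1309, 1216 and 1018 bp, which overlapped (difference -413 bp, exact permutation p = 0.0571, adjusted 0.173). Ifit3 was again the exception in direction, with 1236, 1179, 1110 and 1343 bp at 37°C and 1419, 1411, 1368 and 1231 bp at 39°C (difference 140 bp, exact permutation p = 0.0857, adjusted 0.208), where replicate 4 at 39°C lay inside the 37°C range. The Isg15 peak was 965, 800, 480 and 901 bp wide at 37°C and 531, 421 and 683 bp in the 3 libraries at 39°C that had it.

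**Figure D3:**
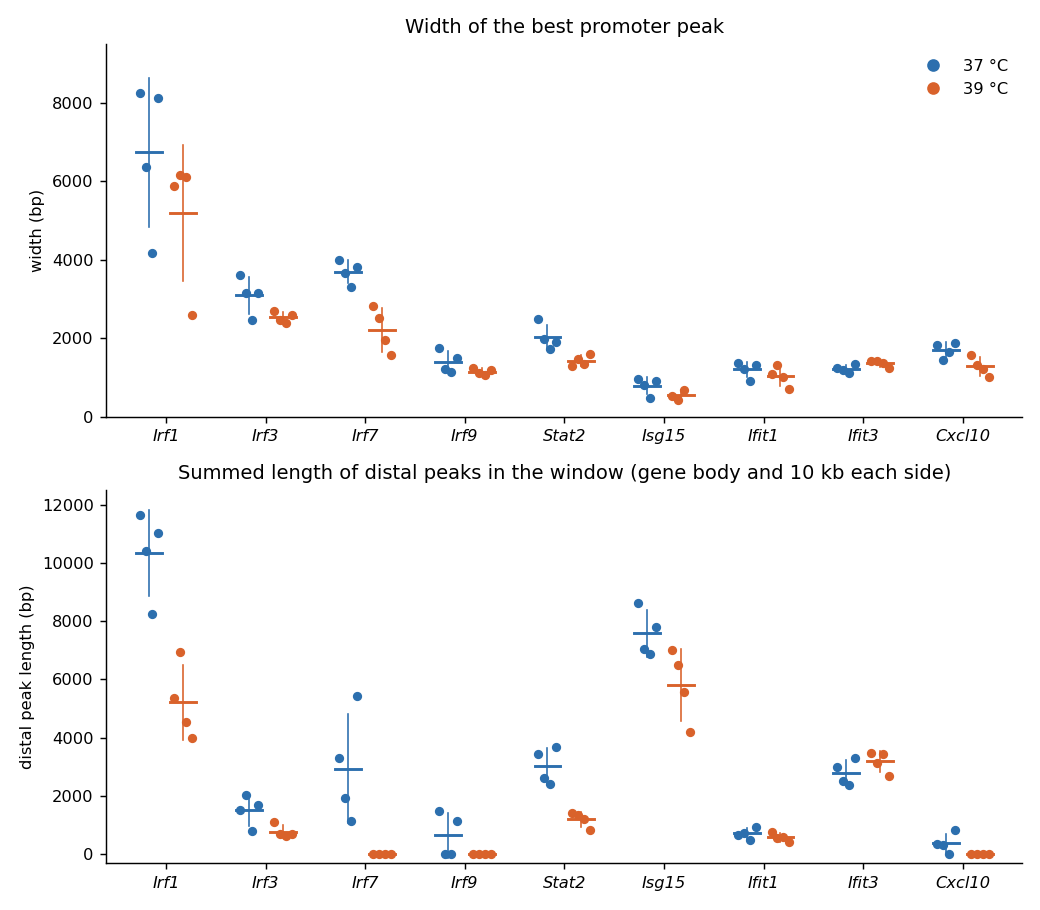
Width in bp of the best promoter peak (top) and summed length in bp of distal peaks in the window of gene body and 10 kb each side (bottom) for the 9 members in 4 libraries at 37°C (blue) and 4 at 39°C (orange). Points are libraries, horizontal bars are means and vertical bars are ± 1 SD; Isg15 has 3 width values at 39°C. Irf7 has 1124 to 5422 bp of distal peaks at 37°C and 0 in all 4 libraries at 39°C.

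Distal peaks are those in the window but not within 1 kb of a start of the gene, and their length was counted only up to the edge of the window, 10 kb from the gene. Their summed length was separated and lower at 39°C around the factor genes Irf7, Irf1 and Stat2. Irf7 had 3300, 1917, 1124 and 5422 bp of distal peaks at 37°C, in 2 to 5 peaks per library, and 0 bp in every 39°C library (exact permutation p = 0.0286, adjusted 0.0833). Irf1 had 11658, 10401, 8258 and 11035 bp at 37°C and 5357, 6955, 4538 and 4000 bp at 39°C, again without overlap (difference -5126 bp, exact permutation p = 0.0286, adjusted 0.0833). Stat2 had 3452, 2599, 2409 and 3674 bp against 1399, 1350, 1205 and 822 bp (difference -1840 bp, exact permutation p = 0.0286, adjusted 0.0833). These were the 3 separated members of 9, beside 33.6% of all genes tested with less distal length at 39°C and 0.678% with more. Equal numbers of peaks left 1 of these 3 separated, Irf1 at -2557 bp (exact permutation p = 0.0286), while Irf7 at -376.5 bp (exact permutation p = 0.429) and Stat2 at -639 bp (exact permutation p = 0.0571) overlapped. When peaks up to 5 kb from a start were counted as promoter peaks, Stat2 was separated at -1251 bp, and Irf1 at -669 bp (exact permutation p = 0.571) and Irf7 at -861 bp (exact permutation p = 0.143) overlapped. Irf9 and Cxcl10 had distal peaks in some 37°C libraries and in no 39°C library, and the deep replicates 1 and 4 held the most. Ifit3 had more distal length at 39°C on average, with 2986, 2524, 2362 and 3303 bp against 3484, 3141, 3439 and 2699 bp, but the groups overlapped (difference 397 bp, exact permutation p = 0.2, adjusted 0.305). Ifit3 was separated and higher at 39°C with equal numbers of peaks, by 1492 bp (exact permutation p = 0.0286, adjusted 0.103), where all genes tested gave 25.4% lower and 2.24% higher. It was also higher with promoters of 5 kb, by 751.5 bp (exact permutation p = 0.0286), where Isg15 became separated and lower at -864 bp, beside 31.5% of all genes lower and 0.908% higher.

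When peaks of all libraries were merged, the 9 windows held 44 regions. Of these 41 were called in at least 2 libraries, 11 at promoters and 30 distal, and 23 were called in all 8 libraries. Region percentiles, a comparison chosen after the values were seen, were separated and lower at 39°C for 16 of the 41 and higher for 2, beside 43.7% and 1.04% of all 84777 such regions. With equal numbers of peaks 26 regions of the windows were left, of which 5 were lower and 6 higher, beside 22.3% and 14.6%. With all peaks 3 regions were called in all 37°C and no 39°C libraries, where the background was 6.04%, and 0 in all 39°C and no 37°C libraries, where it was 0.314%. With equal numbers of peaks these counts were 1 and 1 of 26, beside 2.67% and 1.92%.

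**Figure D4:**
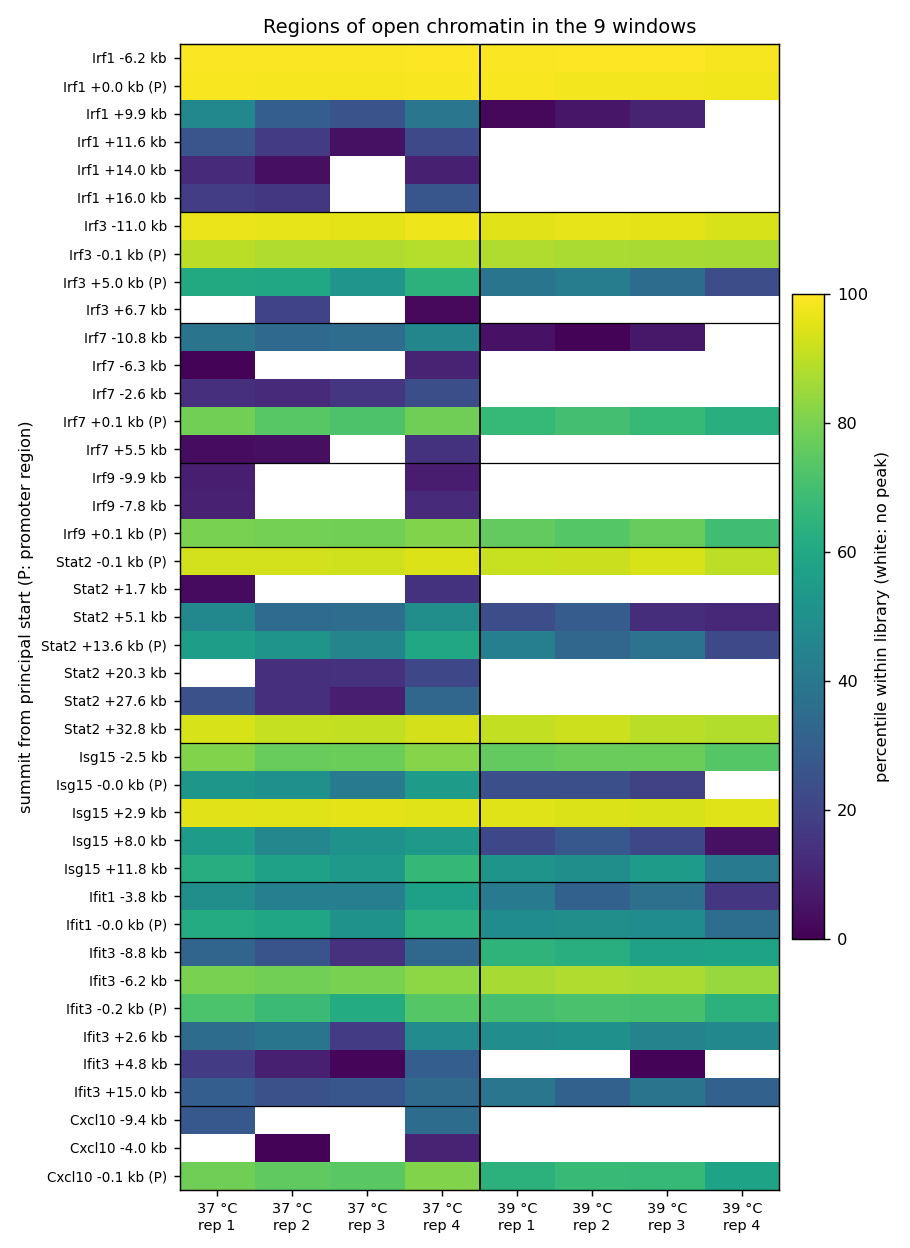
Percentile within library (colour, white where no peak was called) of the 41 regions called in at least 2 libraries in the 9 windows. Rows are regions, named by gene and by the distance of the summit from the principal start in kb (P for promoter regions), and columns are the 4 libraries at each temperature. The regions at +11.6 kb of Irf1, -2.6 kb of Irf7 and +27.6 kb of Stat2 are filled in all 37°C columns and white in all 39°C columns, and the Ifit3 regions at -8.8 and -6.2 kb are brighter at 39°C.

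At Irf1 the promoter region and a region 6249 bp before the start (chr11:53757935-53765203), between genes and near the microRNA gene Mir7671, stayed high. The latter had percentiles of 99.5, 99.5, 99.3 and 99.8 at 37°C and 99.4, 99.6, 99.7 and 98.7 at 39°C, so it ranked above the promoter itself in all 8 libraries. Downstream of the gene, the region 9923 bp after the start (chr11:53777497-53780585) had 46.6, 29.8, 25.5 and 39.5 at 37°C and 2.21, 6.24, 9.62 and no peak at 39°C. Every 39°C library was lower with all peaks (difference -30.8, exact permutation p = 0.0286, adjusted 0.0638) but not with equal numbers (difference -4.89, exact permutation p = 0.143). After the lists were made equal it was at 17.8, 1.51 and 0.190 in replicates 1 to 3 at 37°C and absent elsewhere. The bases from its summit on hold a GAS match, in capitals, which 6.08% of all regions and 3 of the 41 regions in the windows hold within 100 bases of the summit, the Irf9 promoter region and the Irf7 region at 5511 bp being the other two.
Irf1 distal region, chr11:53779937-53780037, plus strand: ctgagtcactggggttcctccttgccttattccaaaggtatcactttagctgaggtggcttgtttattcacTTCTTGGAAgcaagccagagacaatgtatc

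The neighbouring region 11606 bp after the Irf1 start (chr11:53781076-53782567) was called in all 37°C libraries, at percentiles of 26.2, 17.5, 4.48 and 22.2, and in no 39°C library. A pair of further regions, at 14023 and 15961 bp within the noncoding gene Gm12216, were called in 3 libraries at 37°C and in 0 at 39°C and were not separated (exact permutation p = 0.143 for each). The highest percentile of these 3 regions in any library was 26.6, so they were weak peaks where they were called. With equal numbers of peaks none of the 3 was called in any library.

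At Irf7 the region 2587 bp before the start (chr7:141268740-141269899), between genes, had percentiles of 13.7, 11.8, 16.01 and 24.1 at 37°C and no peak at 39°C. With equal numbers of peaks it was not called in any library. The region 10768 bp before the start (chr7:141275658-141279525), at the starts of Cdhr5 and Sct, crosses the edge of the window, and its peaks at 39°C lay outside it and so added nothing to the distal length. It had 38.4, 34.1, 35.8 and 45.8 at 37°C and 4.78, 0.795, 6.31 and no peak at 39°C. It was lower in every 39°C library with all peaks (difference -35.6, exact permutation p = 0.0286, adjusted 0.0638) and with equal numbers (difference -8.84, exact permutation p = 0.0286).

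At Stat2 the region called in all 37°C and no 39°C libraries (chr10:128297459-128298580) lay at Il23a, a cytokine subunit gene downstream, at percentiles of 24.7, 13.3, 8.34 and 33.0. With equal numbers of peaks it was not called in any library. A region in a Stat2 intron 5117 bp after the start (chr10:128274898-128276031) was called in all 8 libraries, at 46.8, 35.0, 35.8 and 49.4 at 37°C and 23.6, 29.0, 13.1 and 10.97 at 39°C. It was separated with all peaks (difference -22.6, exact permutation p = 0.0286, adjusted 0.0638) and overlapped with equal numbers. The Pan2 promoter region at the far end of the window stayed between 88.3 and 93.9 in all 8 libraries, and its groups overlapped.

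The Irf3 gene held a region at its far end, 4958 bp after the principal start and near starts of its shorter transcripts (chr7:45000127-45003679). Its percentiles were 60.6, 59.5, 52.2 and 64.4 at 37°C and 38.8, 42.1, 35.5 and 23.5 at 39°C. Unlike the shared Irf3 and Bcl2l12 promoter, it was lower in every 39°C library with all peaks (difference -24.2, exact permutation p = 0.0286, adjusted 0.0638) and with equal numbers (difference -14.4, exact permutation p = 0.0286). The difference between the regions of 1 gene was not tested.

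The Isg15 window also held regions of its neighbours. The promoter of Agrn, which encodes the matrix protein agrin, lay 2918 bp after the Isg15 start (chr4:156195458-156198802) and had percentiles of 95.7, 95.0, 95.8 and 95.3 at 37°C and 95.2, 94.8, 93.9 and 95.3 at 39°C. A region in an Agrn intron 8045 bp after the start (chr4:156192212-156194811) had 55.1, 46.2, 50.8 and 54.1 at 37°C and 21.8, 27.6, 21.7 and 4.64 at 39°C. The intronic region was lower in every 39°C library on both scales, with differences of -32.6 with all peaks and -21.2 with equal numbers (exact permutation p = 0.0286 for each), while the Agrn promoter groups overlapped on both. The region on the other side, 2530 bp before the Isg15 start at the gene AW011738, overlapped with all peaks. It was separated and higher at 39°C with equal numbers, at 71.1, 67.2, 69.8 and 69.8 against 71.4, 72.8, 71.9 and 73.6.

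The Ifit3 window held both regions that were separated and higher at 39°C with all peaks. A region 8754 bp before the Ifit3 start (chr19:34574346-34575527), with its summit in an exon of Ifit2, had percentiles of 32.5, 26.0, 14.2 and 33.5 at 37°C and 64.9, 62.6, 57.3 and 58.1 at 39°C. All 39°C libraries were far above all 37°C libraries (26.6 ± 8.91 against 60.7 ± 3.60, SD, n = 4 each; difference 34.2, exact permutation p = 0.0286, adjusted 0.0638). Its peaks were 435, 288, 278 and 449 bp long at 37°C and 1126, 802, 673 and 581 bp at 39°C. Among equal numbers of peaks it was called in no 37°C library and in all 39°C libraries, at 57.9, 55.5, 46.8 and 58.1. Ifit2 is a further antiviral effector of the same family. Its own promoter went the other way, with 93.1, 90.6, 88.2 and 92.8 at 37°C and 87.8, 86.6, 87.0 and 87.1 at 39°C, which was separated with all peaks (difference -4.06, adjusted p = 0.0542 in the exact permutation test) and not with equal numbers.

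The region 6213 bp before the Ifit3 start (chr19:34576673-34578234), between Ifit2 and Ifit3, had percentiles of 79.7, 78.9, 79.9 and 82.9 at 37°C and 86.8, 87.9, 87.2 and 84.6 at 39°C. It was the other of the 2 separated regions that were higher at 39°C (difference 6.27, exact permutation p = 0.0286, adjusted 0.0638), and with equal numbers the difference was 13.8 (exact permutation p = 0.0286). Within Ifit3, the intronic region 2645 bp after the start (chr19:34585909-34586607) had 35.4, 38.7, 17.8 and 48.4 against 48.9, 50.2, 44.9 and 46.8. These overlapped with all peaks (difference 12.6, exact permutation p = 0.0857, adjusted 0.158; 6.84 without 37°C replicate 3, and separated at 17.1 without 37°C replicate 4) and were separated and higher at 39°C with equal numbers (difference 32.4, exact permutation p = 0.0286). The region at the start of Ifit1bl1, 14997 bp after the Ifit3 start (chr19:34598406-34599402), behaved likewise, with differences of 5.95 (exact permutation p = 0.114) and 24.6 (exact permutation p = 0.0286). A region at the end of Ifit3, 4837 bp after the start (chr19:34588009-34588768), went the other way, with 17.4, 8.75, 1.36 and 30.0 at 37°C and a peak in only 1 library at 39°C, at 0.955. No IRF, GAS or kappaB match lay within 100 bases of the summits of these 5 distal regions.

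**Figure D5:**
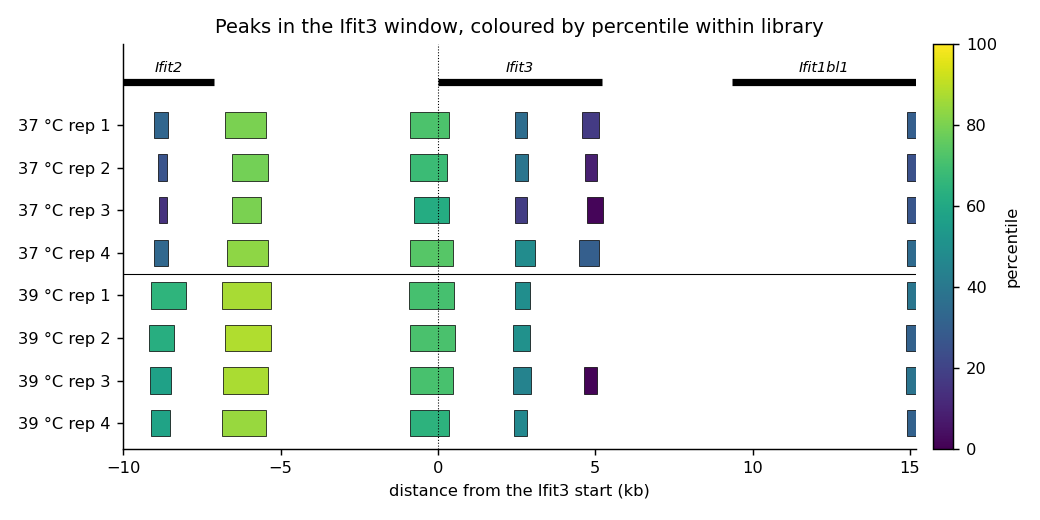
Peaks in the Ifit3 window by distance from the Ifit3 start in kb (x axis) in each of the 8 libraries (y axis), coloured by percentile within library, with gene bodies as black bars. The peaks in Ifit2 and between Ifit2 and Ifit3 are longer and brighter in the 4 libraries at 39°C, at 57.3 to 64.9 and 84.6 to 87.9, and the peak at the end of Ifit3 is in all 4 libraries at 37°C and 1 at 39°C.

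Other genes of the pathway were taken from lists of 109 names, of which 106 matched. None of the 8 interferon ligand genes had a promoter peak in any library, so promoter accessibility at the ligands was not detected at this depth. All 6 receptor genes had promoter peaks in all 8 libraries. Of the 90 pathway genes tested, 59 were separated and lower at 39°C and 0 higher, with a median difference of -5.58 points, beside 52.2% lower, 0.5% higher and a median of -2.90 over all genes. On equal numbers of peaks 23 of 86 were lower and 5 higher, beside 16.4% and 7.52% of all genes. Genes that share a promoter peak were counted separately. Parp9 and Dtx3l share a peak that was lower on both scales, and Tap1 and Psmb9 share a peak that was separated on neither. By role, 24 of 32 antiviral effectors, 11 of 14 antigen presentation genes, 9 of 15 sensors and adaptors, 4 of 5 chemokines, 5 of 8 inhibitors, 3 of 5 other IRFs, 2 of 6 receptors and 1 of 5 kinases and STATs were lower. Differences between the roles were not tested. Among the separated genes the largest difference was at Oasl2, an oligoadenylate synthetase-like gene, with 48.7, 41.3, 34.8 and 50.1 at 37°C and 11.9, 2.04, 7.40 and no peak at 39°C, which was separated on both scales. Next came the chemokine genes Cxcl2 (difference -24.3) and Cxcl16 (-22.3), Ciita, the class II antigen presentation regulator (-19.5), and Mx1, an antiviral GTPase (-19.3), each with an adjusted p of 0.0542 in the exact permutation test. With equal numbers Cxcl2, Cxcl16 and Mx1 overlapped between temperatures, and Ciita had too few peaks to be tested.

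The 5 pathway genes that were higher with equal numbers of peaks were Ifngr1, Dhx58, Tbk1, Ifit3b and Ifit1bl1, named after their values were seen. Ifit3b and Ifit1bl1 lie on chromosome 19 beside Ifit3. The Ifit1bl1 promoter peak is the region 14997 bp after the Ifit3 start given above, so it is not a further observation. Ifit3b had 81.1, 80.1, 76.8 and 82.6 at 37°C and 83.5, 84.3, 83.5 and 82.4 at 39°C with all peaks, which overlapped. Regions called in all 37°C and no 39°C libraries lay in the windows of 16 of these pathway genes. They were 17 of the 347 regions there (4.90%), beside 6.04% of all regions, and none was called in all 39°C and no 37°C libraries, beside 0.314%. The strongest were near Irf2, Eif2ak2, Irf5 and Cxcl2, at mean percentiles of 43.7, 43.5, 43.2 and 37.1.

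The label of neural precursor cells was checked against marker promoters. Of 7 neural precursor genes 4 had a promoter peak in all 8 libraries, Sox2 and Nes among them, and Fabp7 and Prom1 had none. All 5 tested were separated and lower at 39°C with all peaks, beside 52.2% of all genes, and 2 of the 5 with equal numbers, beside 16.4%. Promoter peaks in all 8 libraries were also held by 5 of 8 dopaminergic neuron markers, 6 of 7 neuron markers and 5 of 7 fibroblast or mesenchyme markers, so these promoters do not set neural precursors apart from the other types. Immune cells also use these interferon genes. Of 9 immune markers, 4 to 5 had a promoter peak per library at 37°C and 2 to 4 at 39°C, and Ptprc, Itgam, Cx3cr1 and Tyrobp had none in any library. Their summed percentile ran from 178 to 268 at 37°C and from 138 to 185 at 39°C. The sum was also lower at 39°C for neural precursor markers (291 to 329 against 213 to 256) and neuron markers (412 to 458 against 313 to 361). Dopaminergic neuron markers gave 425 to 454 against 386 to 397, and fibroblast or mesenchyme markers gave 439 to 522 against 422 to 491. Of the 5 immune markers with a peak, 4 had a lower mean at 39°C and 2 of these, Csf1r and Cd68, were separated, beside 52.2% of all genes. On equal numbers of peaks 1 of the 4 tested was lower, Csf1r, beside 16.4%, and 1 was higher, Fcer1g, beside 7.52%. With all peaks Csf1r, a receptor of macrophages, had a mean percentile of 54.5 at 37°C and 13.9 at 39°C, while Fcer1g, an Fc receptor subunit, was the exception at 48.9 and 56.7, with groups that overlapped on that scale. These 3 were named after their values were seen, and the part of such cells in the members' values was not tested. Depth moved with the comparison, because the 2 deepest libraries were both at 37°C. Without them, 2 libraries at 37°C were compared with 4 at 39°C, where the exact permutation test cannot go below 0.0667. The same 5 members were separated, beside 59.3% of all genes lower and 2.02% higher, with differences of -28.6 for Isg15, -10.8 for Cxcl10, -9.03 for Ifit1, -6.37 for Irf7 and -4.99 for Irf9 (exact permutation p from 0.0667 to 0.2), and the Ifit2 region was higher at 39°C by 40.6 points. Distal length in these libraries differed by -1520.5 bp at Irf7, and Ifit3 was separated and higher at 39°C by 748 bp (exact permutation p = 0.133), beside 36.8% of all genes lower and 3.75% higher.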

How the data were processed

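SN4741 cells were profiled by ATAC-seq in 4 libraries at 37°C and 4 at 39°C, from aliquots of 50000 cells with 12 amplification cycles. The authors aligned read pairs to mm10 with Bowtie2 2.4.1, sorted and deduplicated them with SAMtools 1.15.1 and Picard 2.26.11, called peaks in each library with MACS3 3.0.0a7 at a q-value of 0.05 without a control or local background, and removed blacklisted regions with bedtools 2.30.0. No mapping quality filter is stated, so reads may be shared between gene copies. The deposited peak lists give the pileup signal, -log10 p, fold enrichment (a ratio) and -log10 q at each summit, and the file headers give the fragments kept.

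Here peaks were ranked within each list by -log10 q, which orders peaks as fold enrichment does because no local background was used. Values were compared between temperatures by two-sided exact permutation tests over 70 assignments, adjusted by Benjamini-Hochberg over all genes or regions with a peak in at least 2 libraries (all 8 for width). Regions were peaks merged by an overlap of 1 bp. Genes came from GENCODE M21 and sequences from the RefSeq copy of GRCm38, read with pysam 0.24.0; other steps used numpy 2.4.6. The scripts were tested on simulated lists. The principal start was that of the APPRIS principal transcript. Pathway genes were named where they were separated, up to 5 in each direction by size, or where their window held a region called in all libraries of only 1 temperature. The members and lists were chosen with earlier results of these data known. Alternatives were a stricter peak threshold, equal numbers of peaks, other promoter and window sizes, each library left out, shallow libraries alone and a replicate block. Reads and differential calls were not used here, and a value that the naming rule gave for 1 further pathway gene is not reported here.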

Additional observations from a re-analysis of the deposited data

Results flagged for a closer look

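Of 49 groups of 4 libraries tested over the 9 members and 3 measures, 4 had a library far from the others by Dixon's criterion, which chance gives in about 1 of 20 groups. All 4 were at 39°C. Replicate 4 stood apart in 3 of them, with an Irf1 promoter peak of 2596 bp beside 5880 to 6162 bp, an Ifit1 promoter percentile of 36.1 beside 48.6 to 49.4, and an Ifit3 promoter percentile of 64.1 beside 70.5 to 71.5. This library also had the shortest peak list, 54845 peaks. Replicate 1 stood apart in the distal peak length of Irf3, at 1106 bp beside 609 to 693 bp. Without 39°C replicate 4 the promoter percentile difference was -9.73 at Ifit1 and 2.19 at Ifit3, and the width difference was -684 bp at Irf1.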

How the results depend on the processing

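With equal numbers of peaks the count of members with separated promoter percentiles was 3 in place of 5 (4 at a -log10 q of at least 5, where Ifit1 overlapped), and over all genes 2265 were lower and 1037 higher in place of 7723 and 74. That setting reversed the promoter differences of Irf3 (1.99), Irf9 (0.148) and Stat2 (0.50) and the region differences at Pan2 in the Stat2 window (0.0353) and at 11761, 2918 and -2530 bp from the Isg15 start (1.33, 0.805 and 2.96). Under it 1 region in the windows was called in all 37°C and no 39°C libraries and 1 in all 39°C and no 37°C libraries, of 26, beside 2.67% and 1.92% of all regions on that scale. The former was the region 10768 bp before the Irf7 start, and none of the 3 regions so called with all peaks was called there. Among distal lengths equal numbers of peaks ended the calls of Irf7 and Stat2 and made Ifit3 separated, and promoters of 5 kb ended those of Irf1 and Irf7 and made Isg15 and Ifit3 separated, with the values given above. The count of regions called in all 37°C and no 39°C libraries, 3 with all peaks, was 1 of 35 at a -log10 q of at least 5, beside 4.62% of all regions, and 8 of 69 with 25 kb on each side, beside 6.04%. Leaving out each library in turn, separated promoter percentiles numbered 5 to 7 members, with Irf1 and Irf3 added without 39°C replicate 1, Irf3 without 37°C replicate 2 and Stat2 without 39°C replicate 3, where between 52.5% and 63.2% of all genes were lower. The Stat2 promoter difference, -1.48, was -2.13 in the last of these and -0.84 without 39°C replicate 4. Separated widths numbered 2 to 4 members, separated distal lengths 3 to 6 and regions called in all 37°C and no 39°C libraries 3 to 6. Each highest value of these 3 counts came without 37°C replicate 3, and distal lengths numbered 5 without 39°C replicate 1. Without 37°C replicate 3, widths were lower for 6462 of all genes in place of 3073 distal lengths for 8467 in place of 5356, and 10.4% of all regions were called in all 37°C and no 39°C libraries. The Ifit3 promoter difference, 0.48, ranged from -1.89 without 37°C replicate 3 to 2.19 without 39°C replicate 4 and was -0.271 without 39°C replicate 2 and -0.0494 without 39°C replicate 3. That of the Irf1 region at -6249 bp ranged from -0.265 without 39°C replicate 3 to 0.0446 without 39°C replicate 4. Deviations of same-numbered libraries correlated at 0.181, -0.0311, -0.0228 and -0.242, and those of other pairs at -0.256 to 0.261. These values cannot show whether same-numbered libraries were prepared together, which the labels do not state. With a replicate block, 7 members had all 4 same-numbered differences in 1 direction for promoter percentiles, 5 for widths and 5 for distal lengths, where all genes gave 64.8%, 46.3% and 47.2% lower and 1.12%, 0.403% and 1.30% higher, and the exact sign-flip test cannot go below 0.125. The causes of these changes were not tested. With 4 libraries per temperature and no counts per gene, small differences were not detectable.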
